A study of Mus musculus with 8 samples.

Results

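Within 150 nt of a stop codon, 234 of the 16399 peaks shared by the 2 wild-type (WT) libraries of RBM45 iCLIP were found, on 225 genes. A peak belongs here when its midpoint lies in an exon of a protein-coding transcript of the peak's strand and is at most 150 nt from the stop codon along that transcript, for any transcript of the GENCODE M21 basic set (mm10). The 234 peaks are 13.5% (95% Wilson interval 12 to 15.2) of the 1727 shared peaks in exons of protein-coding transcripts. The remainder of those exonic peaks, used below for comparison, comprises 812 in other 3' UTR, 582 in other coding sequence and 99 in 5' UTR. Position alone chose the members, beyond the overlap between libraries that every shared peak has, so their place is no finding. Sequence did not enter the choice. Strength did not enter the choice among shared peaks, but it entered through peak calling and the overlap, which taller peaks met more often.

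The study profiled RNA bound by RBM45, a protein with RNA recognition motifs, by iCLIP in mHippoE-2, a mouse line of transformed hippocampal neurons, in which crosslinked protein is pulled down and the RNA it carries is sequenced. All cells, controls included, carried a lentiviral FLAG-HA-tagged mouse RBM45. Of 8 libraries, 4 come from WT cells (2 CLIP, 2 size-matched input) and 4 from Mettl3 knockout cells (the same kinds), the latter crosslinked with 2 doses of 150 mJ/cm2 UV at 85% confluency (no crosslinking is stated for the WT samples). The results below rest on WT CLIP replicates 1 and 2, whose labels do not say that they came from separate cultures, and no comparison with the knockout or with input was made. Because the tagged protein is expressed from a virus, endogenous RBM45 levels and sites cannot be told apart from those of the tagged protein. Of 13 neuronal marker genes, 10 had a peak in both libraries, as had all 4 microglial markers, none higher than 5 reads, so that the peaks are no check of the cell type. Nefl and Neurod1 had no peak in either library.

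The end of the coding sequence and the first stretch of the 3' UTR are where m6A, the methylated adenosine placed on mRNA by the METTL3 complex, is known to be densest. METTL3 acts on the consensus DRACH, in which H stands for any base but G, R for a purine and D for any base but C, and sites around the stop codon often lie in long last exons. The same stretch holds binding sites of many proteins that control stability and translation of mRNA, and in replication-dependent histone mRNAs it holds the stem-loop that replaces a poly(A) tail.

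Members with repeated GAC are shown first because pairs of GAC, written GACGAC or GACNGAC, stood within 50 nt around the midpoint of 9 of the 30 strongest members. Each sequence is the 30 nt centred on the peak midpoint, 5′ to 3′ in DNA letters from the GENCODE M21 transcripts (GRCm38/mm10), with each GAC in capitals. Ubtd1 (chr19:42033966-42033995, plus strand) encodes a ubiquitin-domain protein, Ube2r2 (chr4:41190718-41190747, plus) a ubiquitin-conjugating enzyme, Scd2 (chr19:44303296-44303325, plus) a stearoyl-CoA desaturase and P2rx7 (chr5:122683208-122683237, plus) an ATP-gated ion channel. Adnp (chr2:168182090-168182119, minus) encodes a homeobox protein and Brwd1 (chr16:96002144-96002173, minus) a bromodomain protein, and D5Ertd579e lies at chr5:36672687-36672716, minus. The last 3 were chosen after their values were seen.
Ubtd1: cagGACtGACgGACtGACgGACtGACggca
Ube2r2: atttgctttatGACGACttgtatGACGACg
Scd2: atgatGACtGACgttaacccattctggtac
P2rx7: ttgagtattatgagatgctttGACtGACtc
Adnp: catGACtGACggagttgctgatcccatgca
Brwd1: gtaGACtGACtggaatgtactgtgaaagct
D5Ertd579e: acGACagttgatgatGACGACtatgtctgt
In Ubtd1 the element GAC recurs through most of the window, and in Ube2r2 GACGAC stands at both the centre and the 3′ end. Runs of U stood in the 30 nt of other strong members, shown next with runs of 5 or more T in capitals. The wider peaks of Hypk and Dip2c also hold GAC pairs outside the 30 nt shown. They are Hypk (chr2:121458299-121458328, plus), whose product associates with an N-terminal acetyltransferase, Dip2c (chr13:9666078-9666107, plus), the more distal of 2 members of Bcl2l12, a BCL2-related gene (chr7:44991266-44991295, minus), and Alyref (chr11:120594692-120594721, minus), which encodes an mRNA export adaptor.
Hypk: tgttttgctgTTTTTTTTTTTTcttcagtt
Dip2c: aTTTTTctttcTTTTTTTTccttctcagtg
Bcl2l12: gTTTTTTgTTTTTTTTTTTgccaaaaagac
Alyref: TTTTTcttcctgttttaaaataggatctaa
In Alyref the run of 5 T stands at the 5′ end of the 30 nt and not at the centre. All 4 of these U-rich members lie on the 3' UTR side of the stop codon.

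Most members lay on the 3' UTR side. Of the 234, 160 had their midpoint downstream of the stop codon (68.4%, 62.2 to 74.0), 72 upstream (30.8%, 25.2 to 37.0) and 2 within it, in Wdr55 and Calm2, a calmodulin gene. In steps of 50 nt from 150 nt upstream to 150 nt downstream the members numbered 20, 25, 27, 47, 54 and 59, so they became more frequent across the stop codon with no maximum at it. The nearest after Wdr55 and Calm2 was Mt2, 4 nt downstream. In 28 members (12%) the peak covered a base of the stop codon. The midpoint lay in the last exon in 217 members (92.7%). A 3' UTR of at most 150 nt belonged to 38 members, and 41 of the 160 downstream members (25.6%) were also within 150 nt of the transcript's 3′ end, so that for these the stop codon and the poly(A) site cannot be told apart as landmarks. At the edges of the window, Gpi1 (148 nt) and Pqbp1 (150 nt) lay just inside it upstream and Kdm5b and Trmt112 (both 147 nt) downstream, while Etv4 and Clcn6 (both 152 nt) upstream and Cchcr1 and a further P2rx7 peak (both 153 nt) downstream lay just outside.

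**Figure D1:**
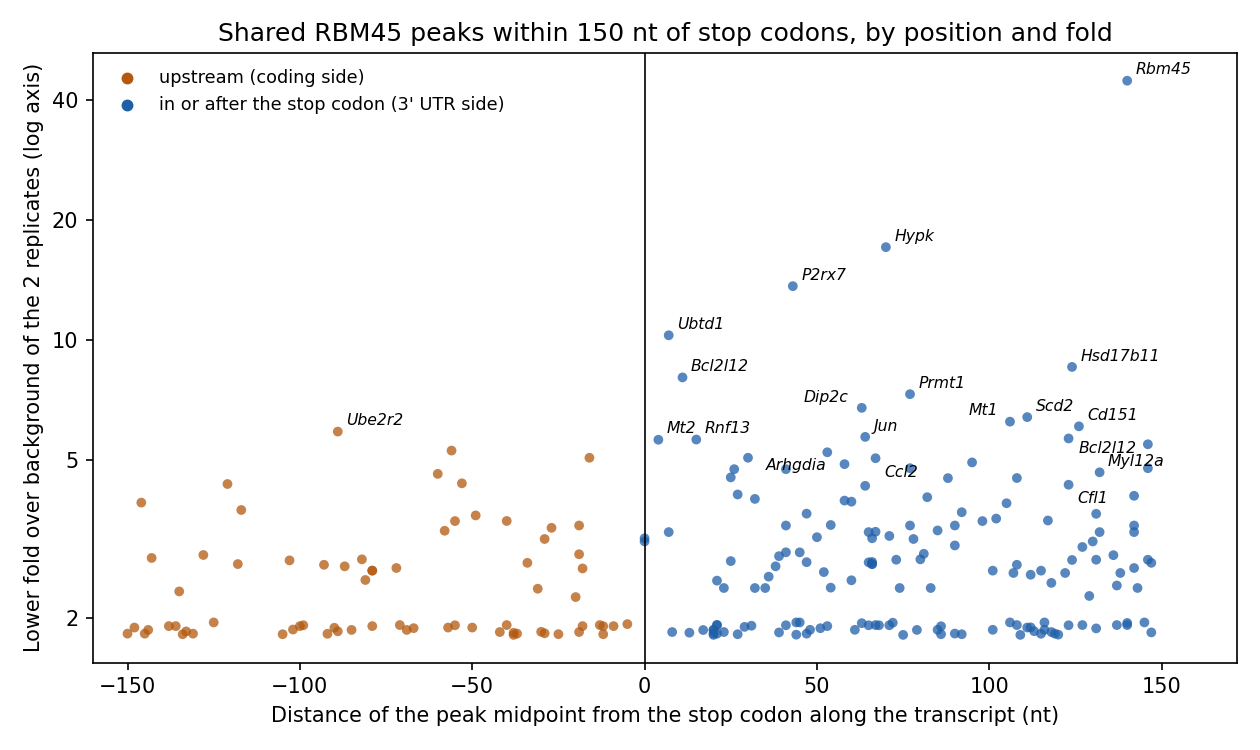
Position of each of the 234 members along the transcript (x, nt from the stop codon, negative in coding sequence) against the lower of its folds over background in the 2 replicates (y, log axis), with the 20 strongest members named. Of those 20, 19 lie downstream of the stop codon and Ube2r2 lies upstream.

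Relative to transcript length, shared peaks were denser after the stop codon than before it. On 1 transcript for each of 7805 genes, density from the stop codon to 150 nt upstream was 0.513 shared peaks per 10 kb (0.398 to 0.660), against 0.505 (0.435 to 0.587) from 150 to 600 nt upstream. Downstream it was 1.24 (1.05 to 1.46) in the first 150 nt and 1.05 (0.933 to 1.17) from 150 to 600 nt, and these intervals overlap. In the single libraries the change across the stop codon was smaller. Replicate 1 had 9.17 peaks per 10 kb in the 150 nt before and 12.2 in the 150 nt after it, and replicate 2 had 8.23 and 10.3. Among peaks of 2 or more reads at the summit in both libraries the density was 0.239 (0.165 to 0.346) before and 0.777 (0.630 to 0.957) after the stop codon. From 150 to 600 nt it was 0.138 (0.104 to 0.184) upstream and 0.563 (0.482 to 0.657) downstream, lower on both sides than within 150 nt but with intervals that overlap. In replicate 2 alone, the density of peaks of any height was 10.3 (9.71 to 10.9) in the first 150 nt of 3' UTR and 9.22 (8.87 to 9.57) from 150 to 600 nt, and in replicate 1 the values were 12.2 (11.6 to 12.9) and 11.8 (11.4 to 12.2). RNA abundance and read coverage did not enter these densities.

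**Figure D2:**
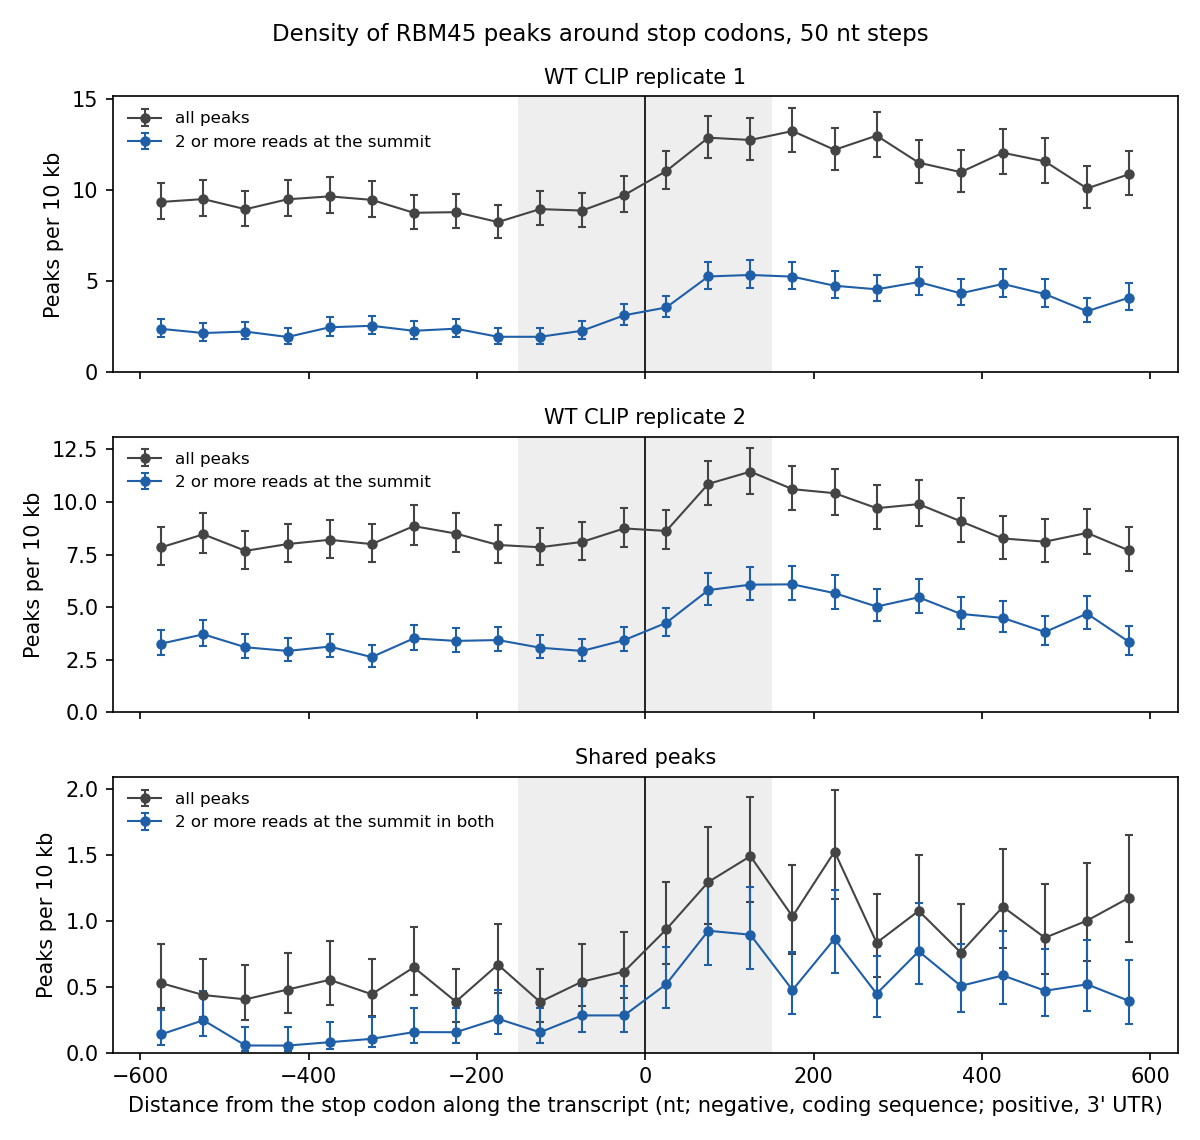
Peaks per 10 kb of transcript (y) in steps of 50 nt around the stop codon (x, nt, grey band within 150 nt), for each WT CLIP replicate and for shared peaks, with 95% Wilson intervals, for all peaks and for those of 2 or more reads. Density is higher on the 3' UTR side, 1.24 against 0.513 shared peaks per 10 kb within 150 nt, and from 150 to 600 nt it is 1.05 for shared peaks and, in replicate 2 alone, 9.22 against 10.3 within 150 nt.

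Much of the list rested on few reads. The height of each peak in reads was recovered from the deposited fold and −log10 p, because the MACS2 formulas for both leave a single whole number (99.993% of replicate 1 and 99.991% of replicate 2 peaks). The median member was 2 reads high in replicate 1 and 3 in replicate 2, with median folds over background of 2.84 (quartiles 1.94 and 4.10) and 3.11 (1.92 and 4.06). In 46 members (19.7%, 15.1 to 25.2) the summit was 1 read in both libraries. At least 2 reads in both were reached by 135 members (57.7%, 51.3 to 63.8), at least 5 by 56 (23.9%, 18.9 to 29.8) and at least 10 by 22 (9.40%, 6.29 to 13.8). A fold of 5 or more in both was also reached by 22. The downstream members were higher: 63.1% (55.4 to 70.2) had 2 or more reads in both, against 44.4% (33.5 to 55.9) upstream, where the intervals just meet. The same share was 51.1% (47.7 to 54.5) in other 3' UTR peaks and 28.9% (25.3 to 32.7) in other coding sequence, the latter below the interval of the upstream members. Reads at a summit can be PCR copies, and the handling of duplicates was not given in the sources used here.

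Folds of the same member in the 2 libraries were mostly close. They were within 1.5 times of each other in 155 members (66.2%, 60 to 72) and over 2 times apart in 26 (11.1%). Part of this closeness was fixed in advance. No member had a fold below 1.82, and at 1 read the fold was at most 1.95 in replicate 1 and 1.92 in replicate 2. The 46 members of 1 read in both libraries therefore had to be close. Across the 234 members the Spearman correlation of the folds was 0.565, beside 0.494 over the 812 other 3' UTR peaks and 0.280 over the 582 other coding sequence peaks. All points come from the same 2 libraries, and the many peaks of 1 read limit the range. The largest disagreement was Washc1, a subunit of the WASH actin-nucleating complex, 49 nt upstream of its stop codon, with a fold of 3.62 at 11 reads in replicate 1 and 23.9 at 24 reads in replicate 2 (named after its values were seen). The 234 members were paired with 230 replicate 1 peaks, since 1 broad replicate 1 peak met a pair of replicate 2 peaks in each of Bcl2l12, Cutc, Herc2 and Ubtd1. The second Ubtd1 member, 113 nt downstream, therefore carried the replicate 1 fold of its neighbour, 10.9, although its own replicate 2 fold was 1.86 at 1 read.

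**Figure D3:**
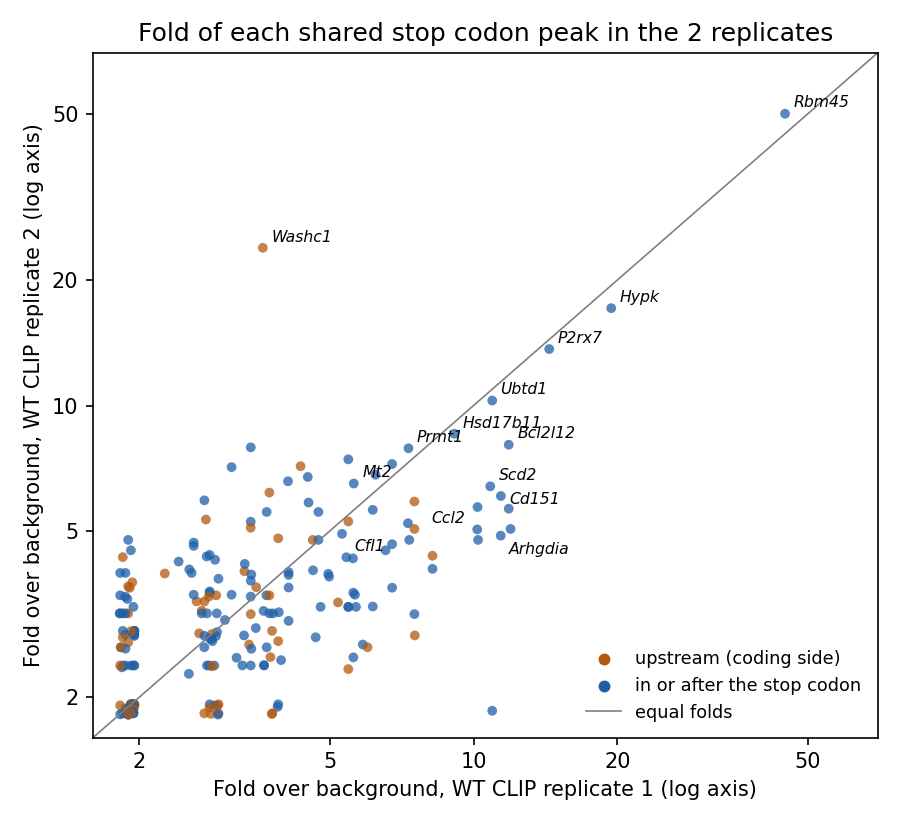
Fold over background of each member in WT CLIP replicate 1 (x) and replicate 2 (y), both on log axes, with the line of equal folds. Rbm45, Hypk, P2rx7 and Ubtd1 lie close to the line, and Washc1 lies at 3.62 and 23.9.

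Tall peaks near stop codons recurred more often between the libraries than small ones. Replicate 2 held 3280 peaks within 150 nt of a stop codon, of which 7.13% (6.30 to 8.07) overlapped a replicate 1 peak by at least 50% of their length and so became members. The share was 3.11% (2.43 to 3.99) for peaks of 1 read, 6.27% (4.62 to 8.46) for 2 reads, 11% (8.53 to 14.1) for 3 or 4 and 33.5% (27.8 to 39.7, 239 peaks) for 5 or more. At 5 or more reads the corresponding shares were 23.2% (20.6 to 26.0) in other 3' UTR and 12% (9.30 to 15.4) in other coding sequence, and the 3 intervals do not overlap. At 1 read the 3 classes had shares from 3.11% to 4.39%. Other 3' UTR peaks had 7.89% (6.78 to 9.16) at 2 reads and 10.8% (9.45 to 12.2) at 3 or 4. Those intervals overlap the ones of stop codon peaks. Over all heights the share was 8.05% (7.54 to 8.60) in other 3' UTR, no lower than near stop codons, and 4.35% (4.02 to 4.71) in other coding sequence. Upstream peaks were shared in 4.85% (3.87 to 6.07) and downstream peaks in 9.10% (7.84 to 10.5). Most tall replicate 2 peaks did not recur: at 1 bp of overlap, 104 of the 239 of 5 or more reads (43.5%, 37.4 to 49.9) met a replicate 1 peak. The other 135 overlapped none. At the same overlap and height, 32.6% (29.6 to 35.6) of other 3' UTR peaks met a replicate 1 peak. In other coding sequence it was 16.7% (13.4 to 20.5), so failure to recur was not particular to stop codon peaks. In replicate 1, 105 peaks of 5 or more reads overlapped no replicate 2 peak, and their share of such peaks was not computed. The tallest of these had 22 reads on Cpe, which encodes the prohormone-processing carboxypeptidase E, and 29 reads on Ddx17, an RNA helicase gene (both named after their values were seen).

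**Figure D4:**
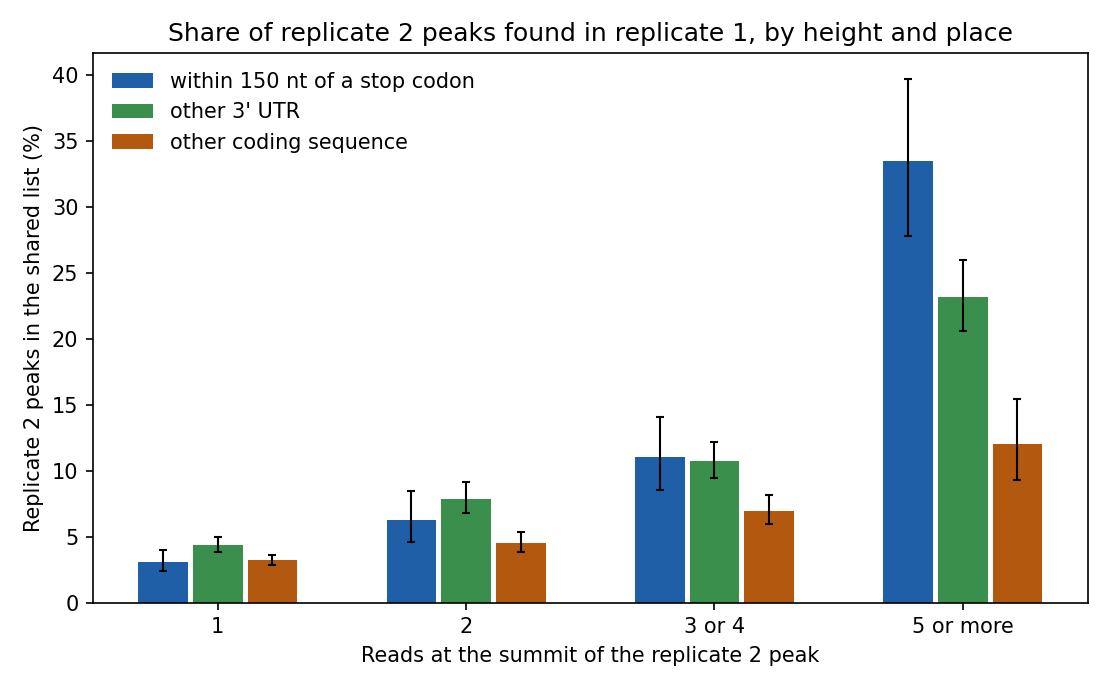
Share of replicate 2 peaks found in replicate 1 (y, %, bars with 95% Wilson intervals) by reads at the summit of the replicate 2 peak (x), within 150 nt of a stop codon, in other 3' UTR and in other coding sequence. The bars for stop codon peaks run from 3.11% at 1 read to 33.5% at 5 or more.

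The strongest member by the lower of the replicates' scores was on Rbm45 itself, 140 nt downstream of its stop codon, at 106 reads in replicate 1 and 114 in replicate 2. The stop codon of Rbm45 lies in the exon before the last, and 36 of the 334 nt of the peak extended from the last exon into the intron. This peak held 13 DRACH, 10 GAC and 27 overlapping UUUUU matches. The transgene encodes the same protein, and whether it holds this 3' UTR was not given in the sources used here. Hypk, 70 nt downstream, had folds of 19.4 at 20 reads and 17.1 at 25 reads. P2rx7, 43 nt downstream, had 14.4 at 14 reads and 13.7 at 15 reads. For these members the libraries differed by less than 1.2 times in fold.

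Fold and height ranked members differently, because the background around a peak entered the fold. Cfl1, the actin-severing protein cofilin, had 47 and 55 reads in replicates 1 and 2 but folds of only 5.42 and 4.33. Scd2 had 65 reads and a fold of 10.8 in replicate 1 and a fold of 6.40 in replicate 2, where no height was recovered. Ubtd1, 7 nt downstream of the stop codon, had folds of 10.9 and 10.3 at 15 and 10 reads. Hsd17b11, a lipid droplet dehydrogenase, had folds of 9.12 and 8.56 at 9 and 12 reads. Prmt1, the main arginine methyltransferase of asymmetric dimethylation, had 7.31 and 7.90 at 7 and 11 reads. These last 3 members were again alike in both libraries.

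Other strong members were less even. The fold was higher in replicate 1 than in replicate 2 for the first Bcl2l12 member, at 11.85 against 8.06, and for Ccl2, a monocyte chemokine, at 10.2 against 5.05 with 28 and 25 reads. The same held for Cd151, a tetraspanin, at 11.4 against 6.07, for Arhgdia at 11.4 against 4.88, and for Jun, a subunit of AP-1, at 10.2 against 5.71. In contrast the metallothioneins, which bind zinc and copper, were slightly higher in replicate 2, Mt1 with 6.24 and 6.83 and Mt2 with 5.62 and 6.50. Over all members the fold was higher in replicate 1 in 136 and in replicate 2 in 98. Dip2c had 6.76 and 7.24, and Rnf13, a RING ubiquitin ligase, 6.16 and 5.62. Myl12a, a myosin regulatory light chain, had 6.76 and 4.65 at 12 and 29 reads. Ube2r2, 89 nt upstream and the only coding-side member of the 20 strongest, had 7.52 and 5.89 at 10 and 11 reads.

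A single DRACH match was common in members and about as common anywhere near stop codons. DRACH occurred in 57.3% of member peaks (50.9 to 63.4), against 50.5% in other 3' UTR and 50.3% in other coding sequence peaks, which were narrower. In windows of equal width, 50 nt around the midpoint, 66.7% of members (60.4 to 72.4) held DRACH. Of all 50 nt windows within 150 nt of stop codons, on genes with exonic peaks in both libraries, 66.4% upstream and 65.7% downstream held it, inside the members' interval. GAC gave 50.4% (44.1 to 56.8) of member windows, against 57.2% of all upstream and 50.2% of all downstream windows. Motifs were searched on the transcript strand, and GAC often lies within DRACH. Among the 56 members of 5 or more reads in both libraries, DRACH reached 76.8% (64.2 to 85.9) and GAC 66.1% (53 to 77.1), and among the 46 of 1 read in both 60.9% (46.5 to 73.6) and 47.8% (34.1 to 61.9), with overlapping intervals. There was no steady rise with height, since the 79 members of 2 to 4 reads in the lower library had 58.2% and 40.5%. At 5 or more reads in both, other coding sequence peaks had 78.4% and 75.7%, and other 3' UTR peaks 60.4% and 47.7%. A DRACH match is no sign that the site is methylated, which was not measured in these files.

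Pairs of GAC were rarer than single matches. A pair, GACGAC or GACNGAC on the transcript strand, occurred in 17 of the 234 member windows of 50 nt (7.26%, 4.59 to 11.3), against 1.99% of all windows upstream and 1.45% of all windows downstream of stop codons. With all heights pooled, other 3' UTR peaks had 3.20% (2.19 to 4.65) and other coding sequence peaks 2.75% (1.70 to 4.42). The members' interval overlaps the first and not the second, but the classes differ in height. The reverse complement, GTCGTC or GTCNGTC, occurred in 1 member window (0.427%, 0.0755 to 2.38) and in 0.920% and 1.07% of all windows upstream and downstream. By height, pairs occurred in 8 of the 56 members of 5 or more reads in both libraries (14.3%, 7.42 to 25.7) and in 1 of the 46 of 1 read in both (2.17%, 0.385 to 11.3). At 5 or more reads in both, other 3' UTR peaks had 3.36% (1.44 to 7.61) and other coding sequence peaks 8.11% (2.80 to 21.3). Both intervals overlap that of the members. At 2 to 4 reads in the lower library, members had 6.33%, other 3' UTR peaks 6.39% and other coding sequence peaks 1.53%. Among the 30 strongest members 9 had a pair in the 50 nt window: Scd2, P2rx7, Ubtd1, Ube2r2, Arhgdia, Adnp, D5Ertd579e, Brwd1 and Stk25, a kinase gene. Inside the peaks, whose widths vary, 21 members held a pair, 13 of them among the 30 strongest, which adds Rbm45, Hypk, Dip2c and the first Bcl2l12 member. The pair was chosen as a motif after the sequences of strong members had been seen, so these counts describe the same peaks that prompted them.

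The 17 members with a GAC pair in the window lay on both sides of the stop codon, 11 downstream, 5 upstream and 1, Wdr55, in it. Adnp, 56 nt upstream, had folds of 5.47 and 5.28 at 7 and 6 reads. Stk25, 95 nt downstream, had 5.31 and 4.93 at 5 reads in both. Brwd1, 30 nt downstream, had folds of 12 and 5.06 at 22 and 8 reads, a difference of more than 2 times. D5Ertd579e, 25 nt downstream, had 4.52 and 5.86 at 4 and 6 reads. For P2rx7, Brwd1 and D5Ertd579e the stop codon was that of another transcript than the one with the longest coding sequence, and the midpoint lay in an intron of at least 1 other transcript of the gene.

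Runs of U were almost confined to the 3' UTR side. UUUUU occurred in 47 member peaks (20.1%, 15.5 to 25.7), 45 of them downstream, that is in 28.1% of downstream and 2.78% of upstream members. Over all near-stop peaks of 1 replicate, shared or not, it occurred in 6.99% in replicate 1 and 6.49% in replicate 2. These peaks are not matched to members in height or width, as 67.4% and 58.8% of them were 1 read high. In members of 1 read in both libraries it occurred in 4.35% of peaks (1.20 to 14.5). The other 3' UTR and other coding sequence peaks gave 19.8% and 2.23%, so the members split as those classes did. In 50 nt windows 30.6% (24.0 to 38.2) of downstream members held UUUUU, against 9.03% of all downstream windows and 28.7% of other 3' UTR peak windows. In upstream members it was 4.17% (1.43 to 11.5), against 2.28% of all upstream windows. Within the 3' UTR the run was scarce in the first 50 nt, in 5 of 47 member peaks, and present in 23 of 54 from 50 to 100 nt and in 17 of 59 from 100 to 150 nt. Runs of 8 U were held by 8 of the 56 windows of members of 5 or more reads in both (14.3%, 7.42 to 25.7), by 0 of the 46 of 1 read in both (a count of 0 allows up to 6.52%, taken as 3 counts), and by 1.13% of all downstream windows. The same 8 U runs were in 28 of 149 windows (18.8%, 13.3 to 25.8) of other 3' UTR peaks of 5 or more reads in both, and in 2.29% of those of 1 read in both. A GAC pair and UUUUU stood together in 4 peaks, those of Rbm45, Hypk, Dip2c and the forkhead factor gene Foxn2, and in the 50 nt window of 1 member, Acd, which encodes the telomere protein TPP1 (Foxn2 and Acd were named after their values were seen). The median U content was 33.3% in downstream and 23.3% in upstream members, beside 34.9% in other 3' UTR and 25% in other coding sequence peaks.

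Windows were also set beside flanks of the same transcripts. For 198 members with 50 nt to 100 nt of transcript free on both sides, UUUUU stood in 18.7% of the centres, 4.04% of the upstream flanks and 12.6% of the downstream flanks. DRACH stood in 67.7%, 68.7% and 64.1%, with more sites in the centre than the mean of the flanks in 87 members and fewer in 77. GAC stood in 53%, 63.1% and 46.5%, between its 2 flanks. For UUUUU the centre had more sites than the mean of the flanks in 34 members, fewer in 27 and as many in 137, and upstream flanks often lie in coding sequence, where runs of U are rare.

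Members on 5 histone genes carried the stem-loop that ends these mRNAs. Of 53 replication-dependent histone genes listed, 14 had exonic peaks in both libraries and 5 had a member: Hist1h2ag, Hist1h3b, Hist1h3c, Hist1h4d and Hist1h4i, all on chromosome 13. Hist1h3c, 27 nt downstream, had folds of 4.09 and 6.58 at 4 and 9 reads, and Hist1h4i, 41 nt downstream, 4.74 and 5.56 at 4 and 6 reads. Hist1h2ag had 2.91 and 2.86 at 2 reads in both, and Hist1h3b 3.42 and 2.38 at 4 and 2 reads. Hist1h4d had many reads, 18 and 44, over a high background, with folds of 2.54 and 4.05. In all 5 the peak contained the stem-loop, searched as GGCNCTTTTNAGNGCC on the transcript strand. It stood in 0.0386% of all downstream windows near stop codons and 0 of 812 other 3' UTR windows (up to 0.369% by the same 3 counts). The stem-loop belongs to histone mRNAs and began 25 to 37 nt after the stop codon in these 5. Its rarity in windows of all genes therefore follows from the genes and measures no preference. Windows of histone genes alone were not counted. The 3 shown have it complete in the 30 nt around the midpoint, in capitals: Hist1h2ag (chr13:22042481-22042510, minus), Hist1h3c (chr13:23745045-23745074, minus) and Hist1h4i (chr13:22040956-22040985, minus).
Hist1h2ag: atcgccaacaaaGGCTCTTTTCAGAGCCac
Hist1h3c: tatttaaaaaaaGGCTCTTTTAAGAGCCac
Hist1h4i: taaaGGCCCTTTTTAGGGCCaccacaaaat
A further histone member, Hist2h2ab, lay 38 nt upstream of its stop codon and had no stem-loop in its window. Its annotated transcript has a 3' UTR of 0 nt, so none could be found there. Histone mRNAs are short, and 40.2% of the median listed histone transcript lies within 150 nt of the stop codon, against 11.4% over all protein-coding genes. Histone genes are near-identical copies, so the copy behind each peak is uncertain, and the motif was chosen after these windows had been seen.

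Few genes had a member, in the other lists as over all genes. Over all protein-coding genes, 225 of the 8149 with exonic peaks in both libraries had one (2.76%). The other lists that had any gave 3.45% to 9.68%, above that share but on 1 to 3 genes each, too few to set a list apart. None of the 12 genes with exonic peaks in both libraries among 27 of the m6A machinery had a member. Nor had any of 21 among 48 splicing factors and hnRNPs or of 3 among 39 ribosomal protein and elongation genes. At a share of 2.76%, lists of so few genes would often have none. Genes of RNA stability and translation had 3 of 31: Zfp36l1, which destabilises AU-rich mRNAs, 27 nt upstream with folds of 5.21 and 3.37 at 5 reads in both, and the decapping genes Dcp2, 81 nt upstream with 3.76 and 2.50, and Dcp1a, 38 nt upstream with 1.89 and 1.84 at 1 read in both. All 3 lay on the coding side of the stop codon used. For Zfp36l1 and Dcp2 that was the stop codon of another transcript than the one with the longest coding sequence. Among signalling kinases and phosphatases, the PP2A subunit genes Ppp2cb and Ppp2r5c had weak members, with folds of 1.83 and 2.63 and of 1.92 and 2.38.

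Cytoskeleton, adhesion and matrix genes had 3 of 40, Cfl1, the actin monomer-binding Tmsb4x with folds of 3.32 and 4.17 at 10 and 14 reads, and Calu, a calcium-binding protein of the secretory pathway, with 5.61 and 2.49 at 13 and 17 reads. Chromatin and transcription regulators had 2 of 50, the demethylase genes Kdm5b (1.89 and 1.84) and Tet2 (1.89 and 1.87), both at 1 read in both libraries. Of further lists, 4 had 1 member gene each. These were Jun of 20 immediate early genes, Rbm45 of 14 ALS and FTD genes, and Stmn1, a microtubule destabiliser, of 26 neuronal genes, with folds of 4.61 and 4.76 at 4 and 5 reads. Cdk1, the mitotic kinase, was the one of 29 cell cycle and p53 genes, with 3.12 and 7.12 at 5 and 9 reads.

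On 8 genes there was more than 1 member. Herc2, which encodes a giant ubiquitin ligase, had 3, at 118 nt and 16 nt upstream and 78 nt downstream, with replicate 2 folds of 3.39, 5.06 and 3.16. Mt2 had 1 at 4 nt downstream and 1 at 121 nt upstream of the stop codon of another transcript, the latter with folds of 4.35 and 7.15. Bcl2l12, Ubtd1, Cutc, Tmem251, Lmtk3 and Top2b, the topoisomerase II beta gene, had 2 each. Top2b had a member on each side, 31 nt upstream with folds of 2.84 and 2.37 and 142 nt downstream with 5.68 and 3.29. Tmem251 had one 117 nt upstream with 3.74 and 6.19 and one 38 nt downstream with 2.70 and 3.18. Both Lmtk3 members were 1 to 2 reads high. Beyond the window, 56 of the 225 genes had a further shared exonic peak, 79 in all, of which 54 were in 3' UTR, 23 in coding sequence and 2 in 5' UTR. The highest of these in replicate 1 was on Hsd17b11, 376 nt downstream, with folds of 15.5 and 17.8, above those of its member. The next was on P2rx7, 237 nt downstream, with 14.0 and 17.1, beside further shared peaks at 153 nt and 314 nt.

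Annotation limits some members. In 202 (86.3%, 81.3 to 90.1) the midpoint was near the stop codon of the transcript with the longest coding sequence of the gene, and in the other 32 near one of another transcript. In 27 (11.5%) the midpoint lay in an intron of another transcript. A gene of the opposite strand lay under 29 members (12.4%), among them Cfl1, Ccl2, Myl12a and both of Bcl2l12, and 12 intervals were listed on both strands. For these the bound transcript cannot be told apart, since the origin of the deposited strands was not given in the sources used here. Without the 29, 205 members remained, 68.3% of them downstream.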

How the data were processed

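Peaks of both WT CLIP libraries (mm10) were deposited as 1 list per library, called by the authors with MACS2 at a p threshold of 0.005, per the peak names in the files. Tools were MACS2 2.1.1.20160309, Novoalign 3.09.00, bedtools 2.25.0, HOMER 4.11.1 and deepTools 3.2.1, per the submitters' processing notes. Whether input served MACS2 as control was not given in the sources used here. Each peak carries the authors' score (10 times the −log10 p, rounded down), a deposited fold (a ratio of pileup over background) and the deposited −log10 p. The deposited shared list pairs a replicate 2 with a replicate 1 peak that covers 50% or more of it, and 16399 of 16399 pairs were recomputed. Intervals of members are those of replicate 2, and replicate 1 values are those of the partner.

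Library totals were not used here, so depth is known only as the height of each summit. Height k was taken as the whole number that fits both the fold, (k + 1) over (background + 1), and the Poisson p, to 5 decimals, by the MACS2 formulas. It was not found for 27 and 31 peaks. A summit of 1 read underlay 76.7% and 69.6% of all peaks. Recovery was tested on simulated data (600 of 600 heights, 1000 of 1000 transcript positions).

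A deposited table of counts by the authors has 8 library columns whose names match no labels. It was not used, and the planned contrasts with knockout and input were not run. No test across many features was therefore made, and shares carry 95% Wilson intervals, which cover counting error only. Members and lists were chosen with earlier results of these data known. Named are the 20 strongest members by the lower score, members on 13 gene lists, genes with more than 1 member, members at the window edges or nearest to the stop codon, and the 5 strongest with DRACH and with UUUUU. Some members on these lists are not reported here. Analyses ran in Python 3.11.15 with scipy 1.17.1, pandas 2.3.3, numpy 2.4.6 and bedtools 2.31.1, and plots in matplotlib 3.10.9.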

Additional observations from a re-analysis of the deposited data

How the results depend on the processing

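The count of 234 members was 76 within 50 nt, 442 within 300 nt, 22 at a fold of 5 or more in both and 135 at 2 or more reads in both, and between 184 and 275 under the other choices of transcript, strand, overlap and peak edge. The share of exonic shared peaks near stop codons was 4.40% within 50 nt, 25.6% within 300 nt, 26.8% at a fold of 5 or more and 17.9% at 2 or more reads. With either replicate alone it was 10.9% to 11.5%. The downstream share was 61.8% within 50 nt, 86.4% at a fold of 5 or more, 74.8% at 2 or more reads, and 53.6% to 55.2% with either replicate alone. DRACH was in 66.7% of 50 nt windows and in 81.8% of peaks at a fold of 5 or more (50.4% to 51.0% with either replicate alone). GAC was in 86.4% at a fold of 5 or more (37.3% to 37.8%), and UUUUU in 40.9% and, at 2 or more reads, in 28.1% (6.49% to 6.99%). Apart from the 50 nt windows, these motif shares are of whole peaks, whose widths vary, and wider peaks have more room for a match. In 50 nt windows, members of 5 or more reads in both had DRACH in 76.8%, GAC in 66.1% and UUUUU in 28.6%. The share of replicate 2 peaks found in replicate 1 was 12% for 1 bp of overlap, 5.61% for 50% of each peak, 50.7% at a fold of 5 or more and 12.8% at 2 or more reads. The cause was not tested. The choices of 2 or more reads and of leaving out opposite-strand genes were made after seeing the data. No paired analysis was possible because the comparisons come from no test and use 1 group.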
